A study of Mus musculus with 20 samples.

Results

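The epithelial and mesenchymal identity switch genes are 10 genes whose products hold cells in an epithelial sheet or release them from it: Cdh1, Epcam, Esrp1, Krt8, Krt18 and Krt19 on the epithelial side and Cdh2, Zeb1, Zeb2 and Snai2 on the mesenchymal side. They were taken as every probe that the platform annotation assigns to these symbols, which gave 18 probes of 10 genes, out of 45281 probes and 19057 genes with a probe. Each was read on all 20 Illumina bead arrays of the study, which hold mouse embryonic stem cells (ESC) and mouse embryonic fibroblasts (MEF). The cells were homozygous (hom) or heterozygous (het, Mysm1+/tm1a) for the allele Mysm1tm1a(KOMP)WTSI, or wild type (wt), all on a C57BL/6 background. Mysm1 encodes a deubiquitinase of histone H2A. The groups were ESC hom, ESC het and ESC wt with 3 arrays each, MEF hom with 3 arrays, and MEF het and MEF wt with 4 arrays each. MEF arrays stood for separate animals, whereas ESC arrays of a genotype were separate passages of cells and the number of lines was not stated. A p-value within ESC may therefore reflect the spread of passages and nothing more. The ESC side of every p-value of ESC against MEF has the same limit. A label abbreviates the ESC as MSCs, and their pluripotency markers are given next.

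An epithelial cell is joined to its neighbours by E-cadherin, the product of Cdh1, and carries a keratin network whose simplest form pairs keratin 8 with keratin 18 or 19. The zinc finger repressors of the Zeb and Snai families bind E-box elements and repress Cdh1 and other epithelial genes, and their rise during epithelial-to-mesenchymal transition is accompanied by a change from E-cadherin to N-cadherin (Cdh2) and by loss of the epithelial splicing regulator Esrp1. Mouse ESC grow as compact colonies with E-cadherin junctions, and fibroblasts are the classical mesenchymal cell in culture.

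The cell labels were checked on marker genes. All 8 pluripotency markers were above background on all 9 ESC arrays, where their summed intensity was 30274 to 42777, against 77.9 to 720 on the MEF arrays. All 8 fibroblast markers were above background on all 11 MEF arrays, and their summed intensity was 282 to 3139 on ESC arrays against 9623 to 22930 on MEF arrays. A probe was above background where its detection p was under 0.01, which held for 28.5 to 31.8% of probes per array. MEF hom 3 had the brightest median raw signal, 95.7, against 53.2 to 59.9 elsewhere. Mysm1 itself had a mean log2 intensity of 5.70 in hom ESC and 7.75 in wt ESC (exact two-sided permutation p = 0.1, the smallest that 3 against 3 allows, counting differences as large in either direction), and 5.20 in hom MEF and 7.24 in wt MEF (exact p = 0.0286, also the smallest possible). The library labelled ESC het 1 lay at 4.49 for Mysm1, below every hom ESC library, and ESC hom 1 lay at 6.64, the highest of the hom ESC. Of 36 pairs of ESC arrays these 2 were the most alike (r = 0.992 across probes), so the main ESC results are given with and without them.

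Of the 18 probes, 9 were above background on at least 1 array, and they covered 8 of the 10 genes. The 1 probe of Epcam, an epithelial adhesion molecule, and the 2 probes of Cdh2 were above background on 0 of 20 arrays. The Epcam probe lay at a log2 intensity of 4.20 to 4.33 in ESC and 4.18 to 4.33 in MEF, and the brighter Cdh2 probe at 4.28 to 4.67 in ESC and 4.32 to 4.93 in MEF. The lowest signal of a detected probe was 4.90 to 5.13 on the different arrays, so these 3 probes give no level for either gene, and a cadherin exchange could not be read here. The silent probes of genes that were measured were 4 of 5 for Zeb2, 1 of 2 for Zeb1 and 1 of 2 for Krt8. The dimmer Cdh1 probe was above background on 1 array, ESC wt 1. For each gene the probe brightest on average over the 20 arrays stands for it.

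**Figure D1:**
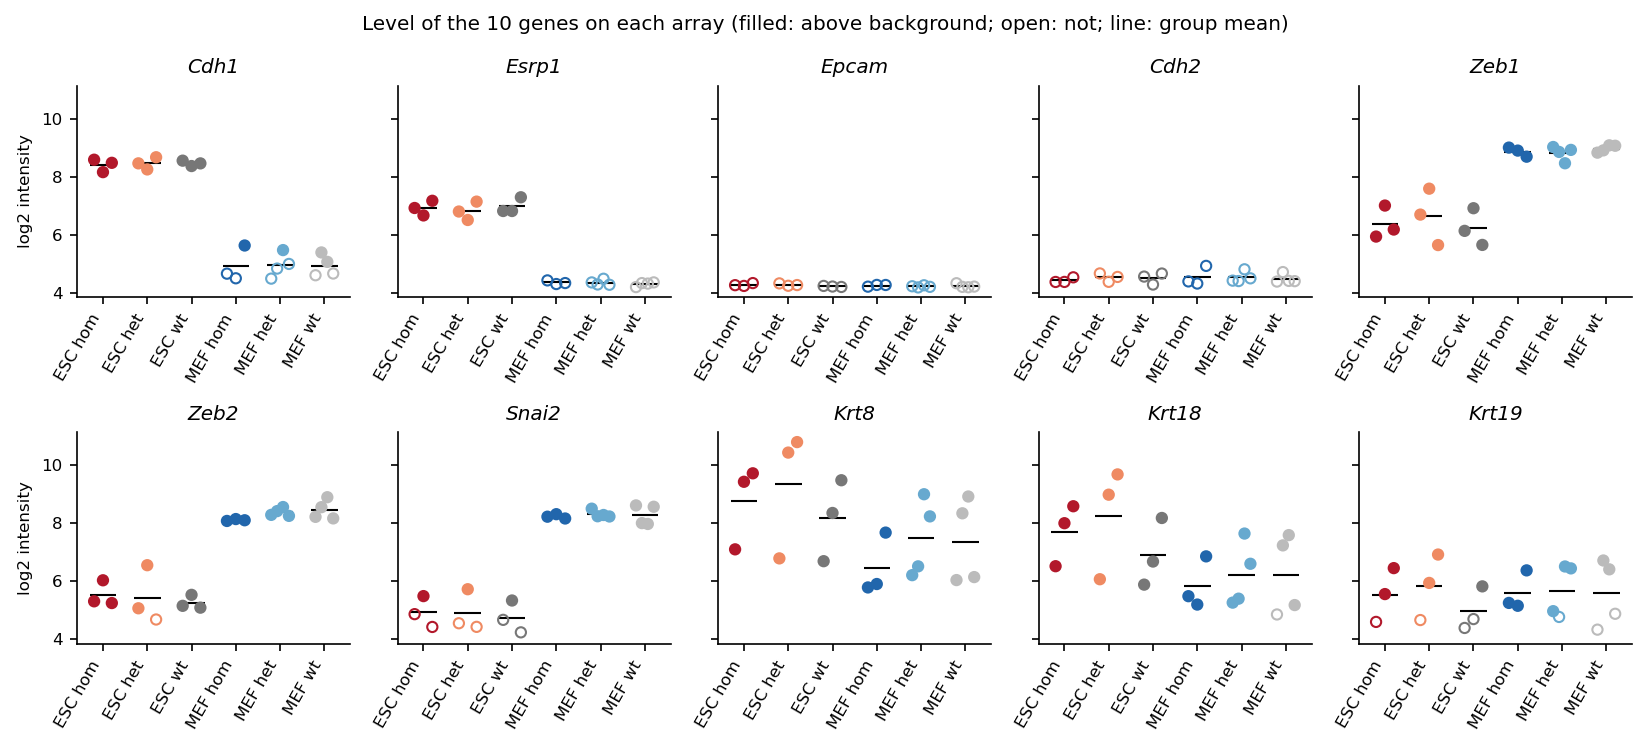
Log2 intensity (vertical axis) of the brightest probe of each of the 10 genes on every array, in 6 groups of cell type and Mysm1 genotype; filled points are above background, open points are not, and lines are group means. Cdh1 and Esrp1 stand above MEF in all ESC groups, Zeb1, Zeb2 and Snai2 stand below, Epcam and Cdh2 are open on all 20 arrays, and the keratin genes spread widely within every group.

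Against MEF of the same genotype, ESC had more Cdh1 and Esrp1 and less Zeb1, Zeb2 and Snai2, while the keratin genes Krt8, Krt18 and Krt19 did not pass the test. In the plot of all members by group, ESC and MEF arrays did not overlap for the first 5 of these. How many of all genes separate as fully was not counted, so no more is read from it. In limma, 5 of the 10 genes, of which 8 were tested, passed an adjusted p of 0.05 in each genotype, 2 higher and 3 lower. Of 9961 genes, 30% were higher and 26.7% lower in hom, 29.9% and 26.7% in het, and 32% and 27.2% in wt. Of all 17067 probes tested, 53.9% passed in hom (29% higher and 24.9% lower). In het 53.8% did (28.8% and 25%) and in wt 56.2% (30.4% and 25.8%). Of the 7 members above background in both cell types, 1 was higher and 3 were lower in wt. Most probes differed between the cell types, so the count of members is near the background and no more is read from it than each gene's direction and size. With the replicate number within each cell type as a block (9 residual degrees of freedom), the same 5 genes passed and no keratin gene did. In that fit 42.5% of probes passed in hom, 45.2% in het and 48.6% in wt. Each block belongs to 1 cell type, so the difference from that fit is not that of the group means. It is therefore no check on the calls, least of all for keratin genes, which differed between ESC numbers. In bulk RNA, fewer cells of a type and less RNA per cell cannot be told apart.

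Cdh1, the E-cadherin gene, had a log2 intensity of 8.58, 8.15 and 8.48 in hom ESC, 8.46, 8.25 and 8.67 in het ESC and 8.55, 8.36 and 8.46 in wt ESC. In MEF it lay at 4.66, 4.50 and 5.63 in hom, 4.49, 4.83, 5.47 and 4.99 in het, and 4.60, 5.39, 5.06 and 4.66 in wt. The 9 ESC arrays lay close together, and in MEF the probe was above background on 4 of 11 arrays, namely hom 3, het 3, wt 2 and wt 3. The difference of ESC minus MEF was 3.48 ± 0.286 (SE, n = 3 each) in hom, 3.51 ± 0.268 (n = 3 and 4) in het and 3.53 ± 0.268 (n = 3 and 4) in wt, an 11.1-, 11.4- and 11.5-fold higher level (limma adjusted p = 2.57e-08, 8.35e-09 and 7.01e-09). The MEF side was above background on 1 of 3 hom, 1 of 4 het and 2 of 4 wt arrays, so these folds are set partly against background signal.

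Esrp1 encodes an RNA-binding protein that sets the epithelial splice forms of many transcripts. It had a log2 intensity of 6.92, 6.66 and 7.17 in hom ESC, 6.80, 6.51 and 7.14 in het ESC and 6.82, 6.82 and 7.29 in wt ESC. On the MEF arrays it lay between 4.20 and 4.48, above background on 0 of 11. The probe therefore entered the fit through ESC alone and had to be higher there, so its p-values add no support. The groups did not overlap, and since MEF gave only an upper limit the ESC level is at least 3.77-fold higher in hom, at least 3.59-fold in het and at least 3.89-fold in wt (limma adjusted p = 1.87e-09, 1.16e-09 and 3.64e-10). For such a bound, each MEF array contributed its dimmest detected signal, or the probe's own signal if that was brighter.

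Zeb1, a zinc finger repressor of Cdh1, lay at 5.94, 7.0 and 6.18 in hom ESC, 6.69, 7.59 and 5.64 in het ESC and 6.13, 6.91 and 5.65 in wt ESC. In MEF it lay at 9.0, 8.90 and 8.69 in hom, 9.02, 8.85, 8.46 and 8.92 in het, and 8.83, 8.90, 9.08 and 9.06 in wt. Every ESC array lay below every MEF array, and ESC spread more widely than MEF. The ESC level fell by 2.49 ± 0.383 (SE) in hom, by 2.17 ± 0.359 in het and by 2.74 ± 0.359 in wt on the log2 scale, relative to MEF (limma adjusted p = 3.32e-05, 6.75e-05 and 4.98e-06).

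Zeb2, the second member of that family, had a log2 intensity of 5.31, 6.03 and 5.25 in hom ESC, 5.07, 6.55 and 4.68 in het ESC and 5.15, 5.53 and 5.09 in wt ESC. In MEF it was 8.08, 8.14 and 8.10 in hom, 8.28, 8.41, 8.55 and 8.25 in het, and 8.22, 8.55, 8.89 and 8.16 in wt. ESC lay below MEF on every array, with ESC het 3 not above background. The fall in ESC was −2.58 ± 0.345 (SE) in hom, −2.94 ± 0.323 in het and −3.20 ± 0.323 in wt (limma adjusted p = 7.40e-06, 7.49e-07 and 2.48e-07).

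Snai2 encodes Slug, a repressor of E-cadherin that is expressed in migrating mesenchyme. It lay at 4.87, 5.49 and 4.42 in hom ESC, 4.55, 5.72 and 4.43 in het ESC and 4.67, 5.34 and 4.24 in wt ESC, above background on 3 of 9 arrays, which were hom 2, het 2 and wt 2. In MEF it was 8.22, 8.31 and 8.16 in hom, 8.50, 8.24, 8.28 and 8.23 in het, and 8.61, 8.0, 7.97 and 8.56 in wt. The groups lay far apart, with log2 differences of −3.30 ± 0.333 (SE) in hom, −3.41 ± 0.312 in het and −3.54 ± 0.312 in wt (limma adjusted p = 3.08e-07, 8.74e-08 and 4.80e-08). For this probe 6 of the 9 ESC arrays give only a limit.

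**Figure D2:**
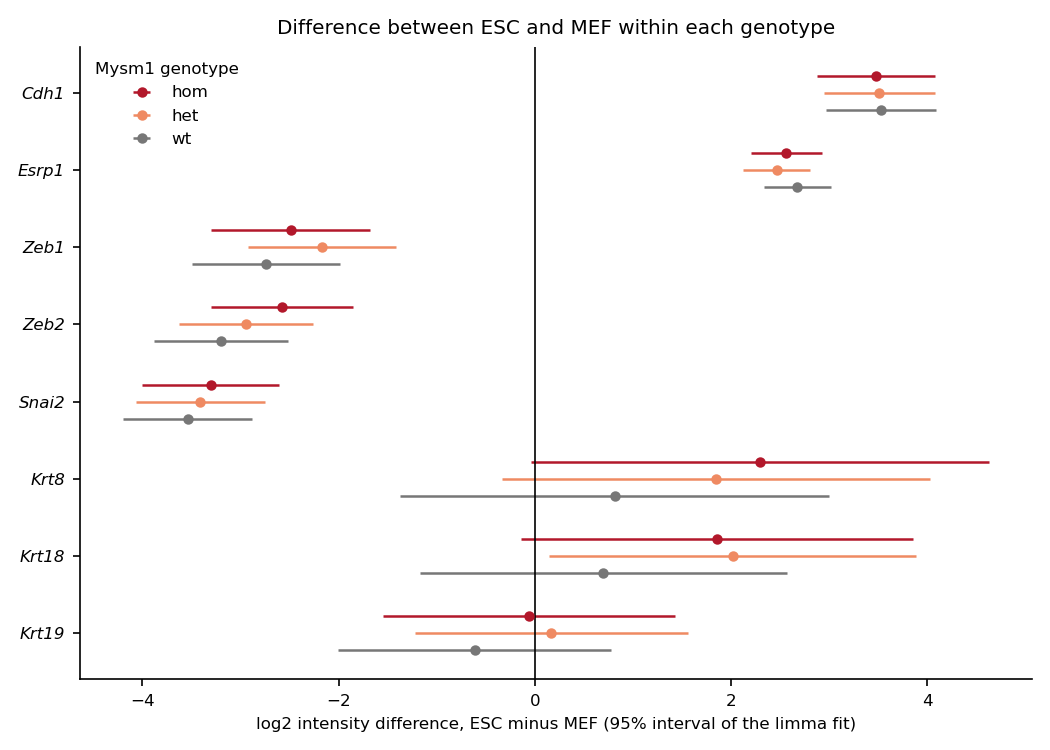
Difference in log2 intensity, ESC minus MEF (horizontal axis), for the 8 measured genes within each Mysm1 genotype; points are limma estimates and bars their 95% intervals. The intervals of Cdh1, Esrp1, Zeb1, Zeb2 and Snai2 lie on 1 side of 0 in all 3 genotypes and overlap between genotypes, and those of Krt8 and Krt19 span 0.

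Slide and cell type overlap on slide 3 only, which held 5 ESC arrays of hom and het and MEF wt 4. Within that slide Cdh1 was 3.71 higher and Esrp1 2.44 higher in ESC, and Zeb1, Zeb2 and Snai2 were −2.62, −2.57 and −3.54 from MEF wt 4 on the log2 scale, with Krt8 at 3.40, Krt18 at 3.15 and Krt19 at 0.98. All but Krt19 passed there (limma adjusted p = 0.000298 to 0.0224, and 0.248 for Krt19), among 6439 of 14035 probes. These sizes rest on 1 MEF array, taken as a comparison after the data were seen, and they set genotypes against each other. With slide as a fixed block the call was lost for Zeb1 in hom (−2.56, adjusted p = 0.0555 in limma) and for Zeb2 in wt (−2.36, adjusted p = 0.0575). Without the libraries labelled ESC het 1 and ESC hom 1 the 5 calls remained in hom and in het, with Cdh1 at 3.40 and 3.52, Esrp1 at 2.59 and 2.50, Zeb1 at −2.26 and −2.20, Zeb2 at −2.47 and −2.77 and Snai2 at −3.29 and −3.25.

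The keratin genes did not pass the test between the cell types. Krt8 and Krt18, which encode the obligate pair of simple epithelia, are neighbours on chromosome 15. Their promoter windows (RefSeq, GRCm38.p6, 250 bases before to 50 after the start, read 5′ to 3′ on each gene's own strand) are shown because these genes moved together on the arrays, with the E-box CAGGTG, which reads CACCTG on the other strand, in capitals. Krt8 is chr15:102004293-102004592 on the minus strand and Krt18 is chr15:102027966-102028265 on the plus strand.
Krt8: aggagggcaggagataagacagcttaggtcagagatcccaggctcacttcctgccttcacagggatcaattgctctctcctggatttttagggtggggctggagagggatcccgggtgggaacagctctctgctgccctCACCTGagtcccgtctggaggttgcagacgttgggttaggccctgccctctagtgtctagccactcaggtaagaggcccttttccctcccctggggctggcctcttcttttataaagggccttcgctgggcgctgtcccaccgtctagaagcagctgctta
Krt18: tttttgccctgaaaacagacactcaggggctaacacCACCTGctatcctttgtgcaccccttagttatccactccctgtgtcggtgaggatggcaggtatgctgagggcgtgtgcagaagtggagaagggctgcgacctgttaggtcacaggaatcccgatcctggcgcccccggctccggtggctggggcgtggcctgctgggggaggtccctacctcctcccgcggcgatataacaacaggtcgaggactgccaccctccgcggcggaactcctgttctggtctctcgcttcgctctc
Each window holds 1 match, which begins 111 bases before the start in Krt8 and 214 bases before it in Krt18, and 20.2% of all 32851 promoter windows hold at least 1. The windows lie 23.4 kb apart, with 0 annotated protein-coding genes between the genes. RefSeq windows were given for 4 of the 10 members. That of Epcam holds 2 matches, 187 and 19 bases before the start, and the 4 windows of Zeb2 hold 0. A match is a description of letters and not of binding.

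Krt8 had a log2 intensity of 7.10, 9.42 and 9.72 in hom ESC, 6.79, 10.43 and 10.79 in het ESC and 6.69, 8.35 and 9.48 in wt ESC. In MEF it was 5.79, 5.90 and 7.67 in hom, 6.21, 6.51, 9.0 and 8.23 in het, and 6.04, 8.34, 8.92 and 6.14 in wt. Levels within 1 group spanned up to 4 log2 units, and ESC and MEF overlapped in every genotype. Krt18 followed the same arrays, at 6.52, 8.0 and 8.58 in hom ESC, 6.07, 8.98 and 9.68 in het ESC and 5.88, 6.68 and 8.18 in wt ESC. In MEF Krt18 was 5.48, 5.20 and 6.86 in hom, 5.26, 5.40, 7.64 and 6.60 in het, and 4.85, 7.23, 7.59 and 5.18 in wt. Arrays high for one of these genes were high for the other in both cell types.

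Krt19 encodes a small keratin of simple epithelia that also pairs with keratin 8. It lay at 4.60, 5.56 and 6.45 in hom ESC, 4.66, 5.94 and 6.92 in het ESC and 4.39, 4.70 and 5.82 in wt ESC, and was above background on 5 of these 9 arrays. In MEF it was 5.25, 5.15 and 6.37 in hom, 4.97, 4.77, 6.51 and 6.44 in het, and 4.33, 6.71, 6.41 and 4.88 in wt, above background on 8 of 11. In both cell types the order of arrays was close to that of Krt8 and Krt18, and ESC and MEF overlapped in every genotype.

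The difference of ESC minus MEF for Krt8 was 2.29 ± 1.11 (SE) in hom, 1.85 ± 1.04 in het and 0.81 ± 1.04 in wt (limma adjusted p = 0.0898, 0.142 and 0.523). For Krt18 it was 1.85 ± 0.950, 2.02 ± 0.889 and 0.70 ± 0.889 (adjusted p = 0.109, 0.0643 and 0.521), and for Krt19 it was −0.06 ± 0.708, 0.17 ± 0.662 and −0.61 ± 0.662 (adjusted p = 0.953, 0.845 and 0.446). The intervals were wide, such as −1.37 to 3.00 for Krt8 in wt, so these values leave room for large differences of either sign. Without ESC hom 1, Krt8 passed in hom at 3.11 (adjusted p = 0.0425). Without ESC het 1, Krt8 passed in het at 3.12 (adjusted p = 0.0196) and Krt18 at 3.10 (adjusted p = 0.00851), and without MEF het 3 Krt18 passed in het at 2.49 (adjusted p = 0.0310). Without both libraries, ESC het 1 and hom 1, Krt8 and Krt18 passed in hom at 3.11 and 2.45 and in het at 3.11 and 3.10, while Krt19 did not. Over all alternatives tried Krt18 passed in 9 of 20 in het and 3 of 19 in hom, and Krt8 in 4 of 20 in het and 4 of 19 in hom. These alternatives include the replicate block, which does not compare the group means.

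**Figure D3:**
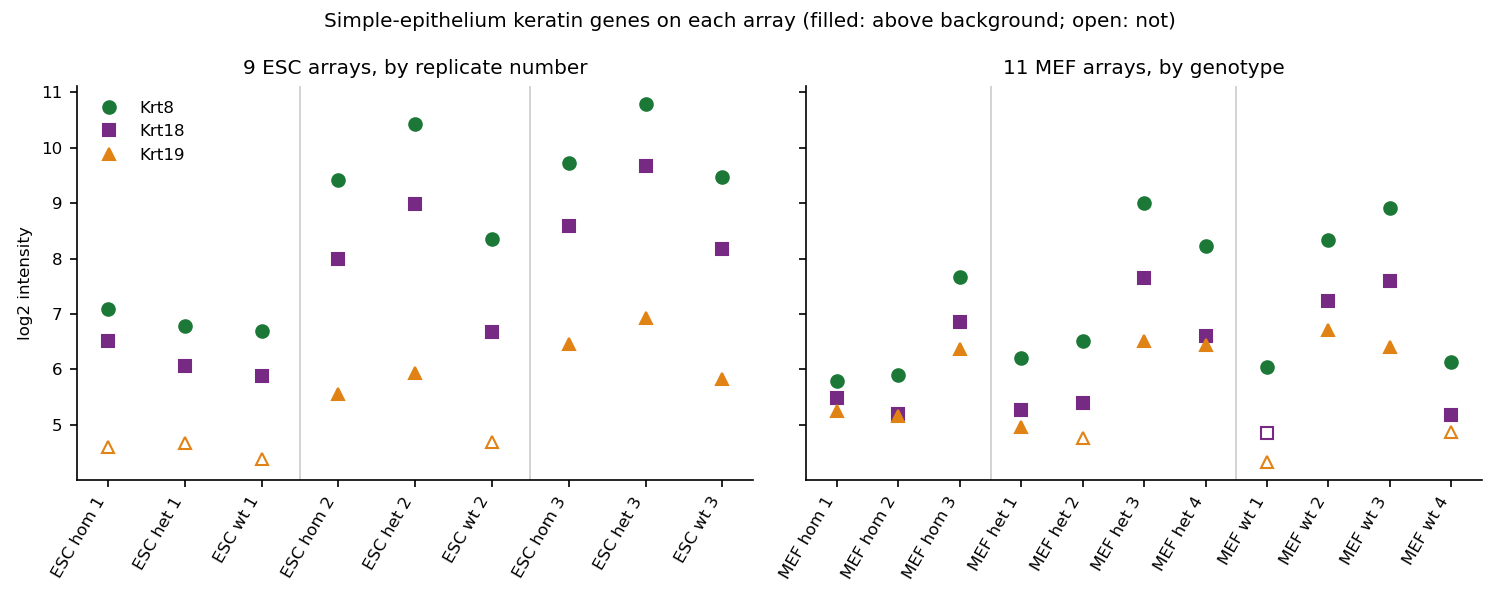
Log2 intensity (vertical axis) of Krt8, Krt18 and Krt19 on each of 9 ESC arrays, set out by the replicate number in the labels, and 11 MEF arrays, set out by genotype; filled symbols are above background. The 3 ESC arrays numbered 1 are the lowest for Krt8 and Krt18, and among MEF the arrays hom 3, het 3, het 4, wt 2 and wt 3 are high for all 3 genes.

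Among 9961 genes, the spread of Krt8 over the 9 ESC arrays (SD 1.58) was at percentile 100, that of Krt18 (SD 1.37) at 99.9 and that of Krt19 (SD 0.91) at 99, where the median gene probe had an SD of 0.217. In MEF these genes were at percentiles 99.2, 98.3 and 96.4, with SDs of 1.28, 1.07 and 0.87. The repressors were also variable in ESC, with Zeb1 at percentile 97.3, Zeb2 at 95.9 and Snai2 at 95.1, but not in MEF, where they were at 22.7, 43.4 and 31.3. Cdh1 was at percentile 26.4 in ESC and 73.6 in MEF, and Esrp1 at 63.6 and 1.8. In MEF the Esrp1 probe was above background on 0 of 11 arrays and the Cdh1 probe on 4 of 11, so their MEF percentiles rank mostly background signal and are not comparable with those in ESC. In ESC the Snai2 probe was above background on 3 of 9 arrays and the Krt19 probe on 5 of 9. Their ESC percentiles therefore include the step from background signal to those arrays. Leaving out the libraries labelled ESC het 1 and hom 1, the ESC percentiles were 99.8 for Krt8 and Krt18, 98.7 for Krt19, 97.5 for Zeb1, 96.3 for Zeb2, 95.7 for Snai2, 70.1 for Esrp1 and 31.7 for Cdh1. Keratin genes were thus among the most variable genes of both cell types, whereas the percentiles of the repressors were high in ESC and below the middle in MEF.

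The variation in ESC went with the replicate number in the labels, as the plot of keratin genes by array shows. After group means were removed, ESC arrays of the same number in different genotypes correlated at 0.367 to 0.773, and those of different numbers at −0.622 to 0.204. These ranges without the libraries labelled ESC het 1 and hom 1 were 0.512 to 0.769 and −0.769 to 0.244. A limma fit with genotype and number, added after the values were seen, gave the differences between numbers (n = 3 each), and its calls describe a pattern already visible in the arrays. In number 2 against number 1, 6 of the 8 members tested rose, against 15.4% of 14502 probes called. They were Krt8 at 2.62 ± 0.280 (SE), Krt18 at 1.75 ± 0.301, Krt19 at 0.77 ± 0.178, Zeb1 at 0.92 ± 0.201, Zeb2 at 0.81 ± 0.217 and Snai2 at 0.74 ± 0.157, with adjusted p of 5.57e-05 to 0.0250. The Snai2 probe was above background on hom 2, het 2 and wt 2 alone. It entered the fit through these arrays and had to be higher there, so its call is no support for a difference. Krt19 was not above background on any array numbered 1, so its rise is set against background signal. It entered the fit through arrays numbered 2 and 3 alone, so its call is no support for a difference either.

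In number 3 against number 1, 3 of the 8 members tested rose, against 3.97% of probes called. These were Krt8 at 3.24 ± 0.280, Krt18 at 2.71 ± 0.301 and Krt19 at 1.73 ± 0.178 (SE, limma adjusted p = 0.000242, 0.000852 and 0.000573), while Zeb1 was at −0.42, Zeb2 at −0.15 and Snai2 at −0.30 and did not pass. Krt19 was again set against background signal and entered the fit without the arrays numbered 1. It had to be higher in number 3, so its call and p-value add no support. In number 3 against number 2, 6 members changed, against 16.8% of probes called. Zeb1 fell by 1.34, Zeb2 by 0.96 and Snai2 by 1.05, and Esrp1 rose by 0.55, Krt18 by 0.95 and Krt19 by 0.95 (limma adjusted p of 0.000690 to 0.0479). The fall of Snai2 was likewise set by the filter, since its probe was above background only on the arrays numbered 2. Cdh1 passed in none of the 3 comparisons, at −0.28, 0.01 and 0.29 (limma adjusted p = 0.112, 0.987 and 0.104).

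These counts depend on single libraries. For number 2 against number 1 the 6 calls became 2 without ESC het 2, 3 without ESC hom 2, 4 without ESC het 1 or without ESC hom 1 and 5 without ESC wt 2. For number 3 against number 2 the 6 became 3 without ESC het 2 or without ESC hom 2, 4 without ESC het 3 or without ESC wt 2, 5 without ESC wt 3 and 7 without ESC het 1. Without both libraries labelled ESC het 1 and hom 1 the counts were 2, 3 and 7, given in the order number 2 against 1, 3 against 1 and 3 against 2. Krt8 and Krt18 in numbers 2 and 3 against number 1 passed under all 18 alternatives tried, and Krt18 in number 3 against number 2 under 8 of 18.

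**Figure D4:**
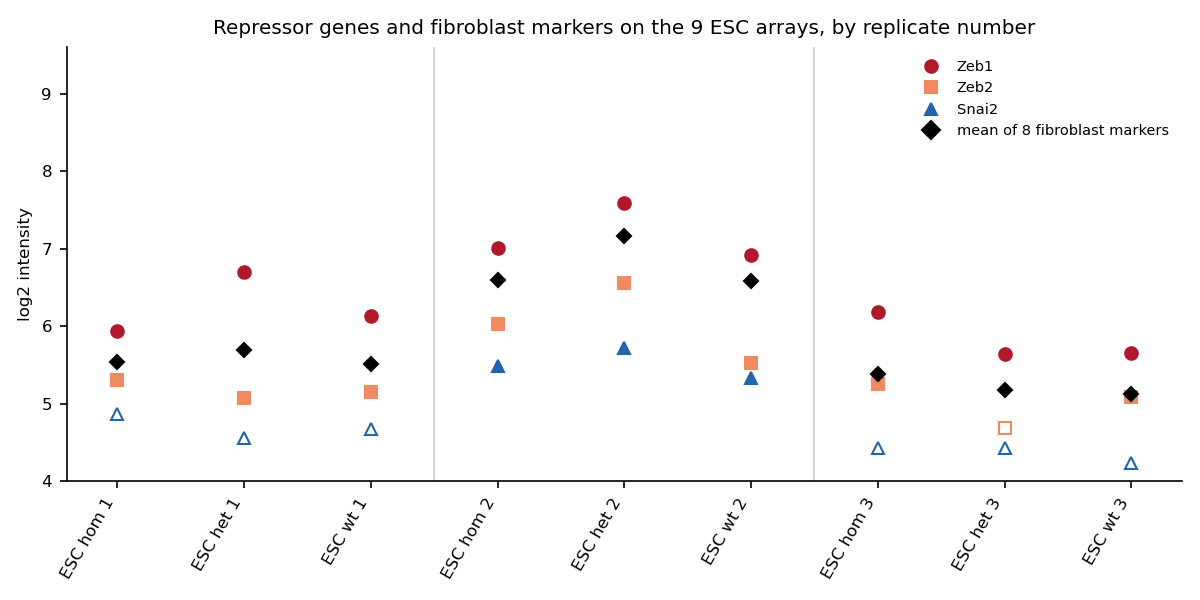
Log2 intensity (vertical axis) of Zeb1, Zeb2 and Snai2 and the mean of 8 fibroblast markers on the 9 ESC arrays, grouped by replicate number; filled symbols of the genes are above background and open ones are not. On the 3 arrays numbered 2 the Snai2 probe is above background and the marker mean is at its highest, 6.58 to 7.16.

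Fibroblast markers moved with the repressors across ESC arrays, and their part in the ESC levels of Zeb1, Zeb2 and Snai2 was not tested. The mean log2 intensity of the 8 markers was 6.59, 7.16 and 6.58 on hom 2, het 2 and wt 2. It was 5.53, 5.69 and 5.51 on hom 1, het 1 and wt 1, and 5.38, 5.17 and 5.12 on hom 3, het 3 and wt 3. The summed intensity of the list was 2095, 3139 and 1868 on the arrays numbered 2 and 282 to 613 on the other 6. On hom 2, het 2 and wt 2 the list had 6, 7 and 6 of its 8 markers above background, with the collagen gene Col1a1 at 8.91, 9.35 and 8.83 and Thy1 at 10.28, 10.79 and 10.09. Col3a1 was not above background on any of these 3 arrays. The mean of 8 pluripotency markers was 9.48 to 9.87 over the 9 ESC arrays, and the mesenchymal matrix genes described further on averaged 8.02, 8.43 and 7.78 on hom 2, het 2 and wt 2 and 6.75 to 7.04 on the other 6 ESC arrays.

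In MEF the arrays high for keratin genes, hom 3, het 3, het 4, wt 2 and wt 3, came from every genotype. The same 5 arrays had lower means of the 8 fibroblast markers, at 9.06, 9.25, 8.76, 8.52 and 8.59, against 10.16 to 10.46 on the other 6. The 6 macrophage markers averaged 6.08, 6.36, 5.97, 5.93 and 6.12 on these 5 arrays and 6.61 to 7.78 on the others. The mesothelium marker Upk3b, a gene of a tissue rich in simple keratins, was at 5.48, 5.50, 5.35, 6.09 and 5.34 on the 5 arrays and at 5.60 to 6.68 on the others, and it was the 1 marker of that list above background. The trophectoderm list, which holds Krt7, averaged 5.23, 5.74, 5.32, 5.65 and 5.32 on the 5 arrays and 4.53 to 4.81 on the others, and its defining markers Cdx2, Eomes, Elf5 and Hand1 were above background on 0 of 20 arrays. The epithelial junction and surface genes averaged 5.36, 5.57, 5.33, 5.56 and 5.57 on the 5 arrays and 4.81 to 4.93 on the others, and the other keratins averaged 6.58, 7.07, 6.37, 7.60 and 6.64 on the 5 arrays and 5.24 to 5.55 on the others. The 5 arrays were singled out by their keratin values, so no difference between them and the rest was tested, and the part of these markers in the keratin levels was not tested.

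By the shape of their values over arrays, the genes most like Krt8 in ESC were Krt18 (r = 0.979), Acta1 (r = 0.973) and Acbd3 (r = 0.971), out of 8084 genes over 9 arrays. For Krt18 they were Acta1, Fbxl12 and Krt8, at r of 0.986 to 0.979, and for Krt19 they were Efna5, Fbxl12 and Jdp2, at 0.977 to 0.968. For Zeb1 they were Cenpb, Fermt2 and Hoxc6, at 0.970 to 0.966, and for Zeb2 they were P4hb, Bicd2 and Mob3a, at 0.963 to 0.960. Cdh1 was most like Cdca8, Fbxl20 and Hbs1l, at 0.962 to 0.956, and Esrp1 was most like Artn, Rimkla and Rab25, at 0.969 to 0.960, of which Rab25 encodes a small GTPase of epithelial membrane traffic. Over the 11 MEF arrays and 8249 genes, Krt8 was most like Bin1 (r = 0.990), Krt18 most like Mcph1 (r = 0.989) and Krt19 most like Yrdc (r = 0.988). The repressors had weaker closest matches in MEF, Slc29a1 for Zeb1 (r = 0.945), Epb41l4a for Zeb2 (r = 0.913) and Agap1 for Snai2 (r = 0.906). The arrays of each cell type fall into clusters, and these names describe the arrays, with no test. Without the libraries labelled ESC het 1 and hom 1, 8 of the 21 names given by this rule in ESC were still among the closest 3, among them Krt18 for Krt8 at r = 0.979.

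None of the 10 genes passed the threshold between Mysm1 genotypes in limma. In MEF 0 members passed in each of hom against wt, het against wt and hom against het, where 0.00661% of 15125 probes did (385, 224 and 242 probes at an unadjusted p under 0.05). Zeb1 in hom against wt MEF was at −0.10 (95% interval −0.45 to 0.24) and Snai2 at −0.05 (−0.46 to 0.35). Zeb2 was at −0.34 (−0.73 to 0.05, adjusted p = 0.999), and its hom values lay below all wt values and below all het values. How many of all genes separate in that way was not counted. Cdh1 was at 0.00 (−0.75 to 0.74), Krt8 at −0.90 (−2.84 to 1.04), Krt18 at −0.36 and Krt19 at 0.02. The intervals were narrow for the repressors and wide for the keratin genes.

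In ESC 0 members passed in each genotype comparison, where 0% of 14502 probes did (limma, 1748, 658 and 528 at an unadjusted p under 0.05 in hom against wt, het against wt and hom against het). With the replicate number as a block 0 members passed as well, where 4.14% of probes did in hom against wt, 0.255% in het against wt and 0% in hom against het. Cdh1 in hom against wt was at −0.06 (95% interval −0.40 to 0.29) and Esrp1 at −0.06 (−0.54 to 0.42). Zeb1 was at 0.14 (−0.93 to 1.21), Zeb2 at 0.25 (−0.63 to 1.13) and Snai2 at 0.16 (−0.65 to 0.98). Krt8 was at 0.59, Krt18 at 0.80 and Krt19 at 0.53 (adjusted p = 0.210, 0.129 and 0.0992 with the block), and in het against wt they were at 1.21, 1.37 and 0.83 (adjusted p = 0.0928, 0.0817 and 0.0807 with the block). Without the libraries labelled ESC het 1 and hom 1 still 0 members passed, with Krt8 at 1.44, Krt18 at 1.40 and Krt19 at 0.97 in hom against wt and at 2.52, 2.47 and 1.40 in het against wt. Krt8, Krt18 and Krt19 correlated at r of 0.92 to 0.98 over the ESC arrays, and hom and het share the same wt arrays. Their values are therefore not separate observations. On all 6 hom and het ESC arrays each lay above the wt array of the same number, a pattern not counted over all genes. No slide held hom and wt ESC, and ESC het 1 was the only other ESC array on slide 2, which held all wt ESC. With slide as a fixed block, hom and het are therefore set against wt through that array alone. It was low in Krt8, at 6.79, as were the other ESC arrays numbered 1, so the signs of that fit cannot test the direction. Krt8, Krt18 and Krt19 were at −3.36, −2.53 and −1.13 there in hom against wt. In het against wt they were at −1.43, −0.85 and −0.28 with that block, and within slide 2 Krt8 was at −1.44 and Krt18 at −0.86. Without ESC wt 1, Krt8 was at −0.17 in hom against wt.

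For no member was the genotype difference shown to differ between the cell types. In the interaction of hom minus wt in ESC with hom minus wt in MEF, 0 members passed, where 0% of 17067 probes did (limma, 887 at an unadjusted p under 0.05), with Krt8 at 1.48 ± 1.52 (SE), Zeb2 at 0.62 ± 0.473 and Cdh1 at −0.05 ± 0.392. For het minus wt 0 members passed as well (0% of probes, 458 at an unadjusted p under 0.05), with Krt8 at 1.04 ± 1.47. Without the libraries labelled ESC het 1 and hom 1 still 0 members passed, with Krt8 at 2.30 in both interactions. No test here shows that the genotypes act alike, since the intervals are wide.

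Other genes of the pathway were read in lists, which show where the members sit among genes of their kind. In ESC wt against MEF wt, 32% of 9961 genes read by their brightest probe rose and 27.2% fell, with a median difference of 0.05. Of 17 epithelial junction and surface genes tested, 16 rose and 0 fell, with a median log2 difference of 2.23, or 1.92 with genes at their bound where they were not above background in 1 group. Another 6 genes of the list were on the array but not tested, and 6 of the 17 were never above background in MEF, so they entered through ESC alone and had to be higher there. Of the 11 above background in both cell types 10 rose. Ap1m2, a basolateral sorting adaptor, was at least 9.81-fold higher and St14, the protease matriptase, at least 4.86-fold. Both were among the 6 never above background in MEF. The desmosome genes Dsg2 and Pkp3 were higher by 3.42 ± 0.223 (SE) and by at least 2.13-fold (limma adjusted p = 9.44e-10 and 2.09e-07), with Dsg2 above background on 1 of 4 wt MEF arrays. Cdh3, the P-cadherin gene, was the exception, at −0.42 in wt (adjusted p = 0.227) and −1.49 in hom and −1.17 in het, where it fell and the other 16 rose.

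Of 9 epithelial transcription and splicing regulators 9 rose in wt, with a median of 1.69, but 5 of the 9 were never above background in MEF and so entered through ESC alone, and 3 more were on the array but not tested. The 4 above background in both cell types rose. Tfap2c was at least 32.5-fold higher, Elf3 at least 7.82-fold and Grhl2, a grainyhead factor that activates Cdh1, at least 3.89-fold (limma adjusted p = 4.61e-13, 1.34e-12 and 1.04e-10). All 3 were among those that entered through ESC alone and had to be higher there, so their p-values add no support. Klf5 rose by 2.57 ± 0.298 (SE, adjusted p = 1.23e-06). The list was 9 of 9 in hom and 8 of 9 in het.

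Of 10 mesenchymal transcription factors 0 rose and 9 fell, with a median of −2.31. Of these 3 entered through MEF alone, and of the 7 above background in both cell types 6 fell. Snai1, the other Snail repressor measured, was at −3.07 ± 0.258 (SE), Twist1 at −2.71 ± 0.261 and Prrx1 at −3.56 ± 0.463, and Foxc1 was at least 2.45-fold lower in ESC (limma adjusted p from 2.03e-08 to 4.65e-06), with Snai1 above background on 1 of 3 wt ESC arrays. Foxc1 entered through MEF alone and had to be lower in ESC, so its p-value, the smallest of these, adds no support. Of 18 mesenchymal matrix, adhesion and cytoskeleton genes 0 rose and 17 fell, with a median of −2.69, and 15 of 15 fell of those above background in both cell types. The collagen-crosslinking enzyme gene Lox was at −4.55 ± 0.539, the membrane protease gene Mmp14 at −3.17 ± 0.360 and Col5a1 at −3.79 ± 0.514, and Col5a2 was at least 2.16-fold lower (adjusted p from 9.62e-07 to 7.26e-06). Of the 18 genes 3 entered through MEF alone and had to be lower in ESC. Col5a2 was among them, so its p-value adds no support.

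Of 10 TGF-beta pathway genes, the signal that induces Zeb and Snai genes in many epithelia, 1 rose and 8 fell, with a median of −1.34. Smad3, a signal transducer of the pathway, was at −1.61 ± 0.155 (SE), the receptor genes Tgfbr1 and Tgfbr3 at −1.0 ± 0.119 and −1.94 ± 0.264, and the ligand gene Tgfb2 was at least 3.08-fold lower (limma adjusted p from 1.40e-07 to 7.73e-06), with Tgfbr3 above background on 1 of 3 wt ESC arrays. Catenins and junction linkers, which tie cadherins to actin, went both ways, with 2 of 7 higher, 2 lower and a median of 0.22. Ctnnal1 rose by 3.06 ± 0.279, Afdn rose by 0.88 ± 0.287, Vcl was at −1.60 ± 0.232 and Ctnna2 at least 1.17-fold lower (adjusted p from 7.46e-08 to 0.0206). Ctnna2 entered through MEF alone and had to be lower in ESC, so its p-value adds no support. Ctnnb1, the beta-catenin gene, was at 0.09 (adjusted p = 0.759), Ctnna1 at 0.22 and Ctnnd1 at 0.35, none of which passed.

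Of 9 other keratins 1 rose and 1 fell, with a median of −0.23, or 0.0 with genes at their bound, and 6 more were on the array but not tested. Krt42, a type I keratin gene, was at least 36.5-fold higher in ESC (limma adjusted p = 7.27e-12), and Krt14, of basal epidermis, was at −3.62 ± 0.950 (adjusted p = 0.00355). Krt42 was never above background in MEF, so it entered through ESC alone and had to be higher there. Of the 7 other keratins above background in both cell types 0 rose and 1 fell. Krt16 and Krt17 did not pass, with limma adjusted p of 0.0870 and 0.209, and in wt MEF the SD over arrays was 2.12 for Krt14, 2.48 for Krt16 and 1.89 for Krt17, against 0.12, 0.31 and 0.05 in wt ESC, where Krt16 was above background on 0 of 3 arrays. These 3 genes had larger SDs over wt MEF arrays than Krt8 (1.48) and lay close together over wt ESC arrays.

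**Figure D5:**
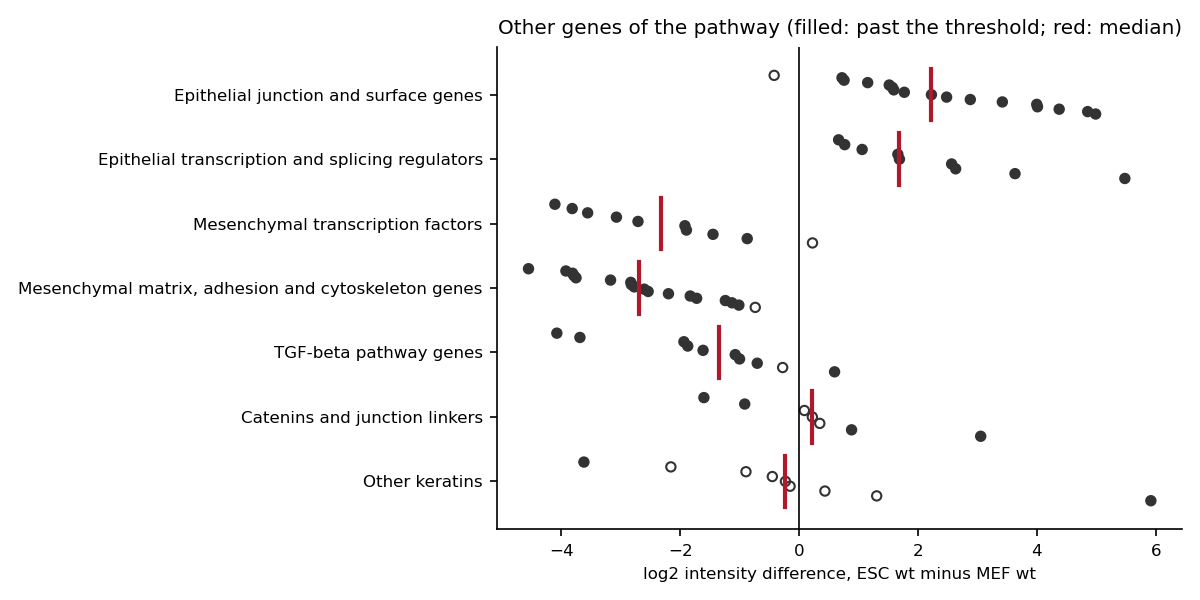
Difference in log2 intensity, ESC wt minus MEF wt (horizontal axis), for each tested gene of 7 lists (rows); filled points pass an adjusted p of 0.05, open points do not, and red lines are list medians. Epithelial lists lie right of 0 apart from Cdh3, mesenchymal lists lie left of 0 apart from Tcf3, and the other keratins spread on both sides.

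In genotype comparisons, list genes passed only in hom against wt ESC with the replicate block, which was the fit in which 4.14% of probes did. They were the smooth muscle genes Tagln at 0.85 ± 0.213 (SE) and Acta2 at 0.42 ± 0.109, which rose, and Tjp3 at −0.83 ± 0.211, Klf5 at −0.49 ± 0.115, Ski at −0.50 ± 0.121, Afdn at −0.36 ± 0.0871 and Ctnna1 at −0.34 ± 0.0828, which fell (limma adjusted p from 0.0394 to 0.0496). Among markers Esrrb fell by 0.65 and Lyz2, a macrophage marker, rose by 1.05. When the libraries labelled ESC het 1 and hom 1 were left out, all 9 kept their direction and 6 passed, while Afdn, Ski and Lyz2 did not (limma adjusted p = 0.0656, 0.0562 and 0.0650), among 1073 of 14183 probes.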

How the data were processed

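Total RNA of 20 samples had been hybridised to bead arrays from Illumina. The deposited table that was not normalized holds, per the file headers, 4 columns an array: the mean bead intensity (linear), its detection p-value, the bead number and the standard error over beads. In the deposited series matrix the intensity values are the authors' normalized ones. BeadStudio and limma are named in the submitters' processing notes, and their roles and versions are not given in the sources used here.

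Background was corrected with neqc in limma 3.58.1 (R 4.3.3) with an offset of 16 and 936 control beads inferred from the detection p-values, followed by quantile normalization and log2. A probe entered a fit where 3 or more of its arrays had a detection p under 0.01. The fit used lmFit and eBayes (trend), with p-values adjusted by Benjamini-Hochberg over all probes of the fit and a threshold of 0.05. The comparisons of ESC with MEF and the interactions used all 20 arrays (17067 probes, 14 residual degrees of freedom). Genotypes were compared within MEF (15125 probes, 8) and within ESC (14502 probes, 6). Values of single arrays are from the joint normalization. The script was tested on simulated data with known changes.

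Genes were named from GEO's platform annotation, in which 34885 probes have 1 gene, 18 several and 10378 none, and the brightest probe on average stood for a gene. Named were all 10 members, Mysm1, up to 4 genes of a list with the smallest p in ESC wt against MEF wt, list genes past the threshold between genotypes, and the 3 genes with the highest Pearson r. Cdh3, Tcf3, Krt7, Upk3b and single markers were named after their values were seen, as were the catenin genes that did not pass. The members and lists were chosen with earlier results of these data known. Equal ESC replicate numbers were treated as pairs, since 9 of 9 arrays were closest to an array of their own number. MEF numbers were not, at 3 of 11 arrays. Arrays lay on 5 slides, and no slide held hom and wt of 1 cell type. The number of arrays limits the precision. Figures were drawn with matplotlib 3.10.9.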

Additional observations from a re-analysis of the deposited data

How the results depend on the processing

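Over 2224 values of members under alternatives in background correction, normalization, the filter on dim probes, blocks, weights, the authors' normalized values and omitted arrays, 2170 stayed on their side of the threshold, 29 called values were no longer past it, 25 uncalled values passed and 0 called values changed sign. Among values not called, 170 turned their sign. The alternatives for ESC against MEF include the replicate block, which does not compare the group means. The number of members called ran from 4 to 7 in ESC hom against MEF hom, from 5 to 7 in het and from 4 to 5 in wt, with the values without an array between those limits. The log2 difference of Cdh1 ran from 2.11 to 3.79 in wt over its alternatives. Slide as a fixed block left 2136 probes called in ESC wt against MEF wt and 4987 in het, against 9599 and 9180, and moved Krt8 and Krt18 in het to 5.0 and 4.61 (limma adjusted p = 0.0384 and 0.0308). Array weights and slide as a random block also brought Krt8 and Krt18 in hom past the threshold.

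Between genotypes, the count of members was 0 under every alternative but 1: within slide 4, which sets MEF hom 1 and hom 2 against het 4 alone and was added after seeing the data, 3 members passed, Krt8 at −2.37, Krt18 at −1.28 and Krt19 at −1.27, among 7581 probes. The replicate block raised the probes called to 601 in ESC hom against wt and 37 in het against wt and changed no member's call, and in MEF, whose numbers do not pair, it left 0 probes. Array weights called 148 probes in MEF hom against het and 19 in the interaction of hom, against 1 and 0. Over the alternatives the probes called ran from 799 to 2626 in number 2 against 1, from 138 to 542 in number 3 against 1 (576 in the fit reported) and from 931 to 3797 in number 3 against 2. For ESC replicate numbers, all alternatives were added after seeing the data. Leaving out each array gave 2 to 6 members in number 2 against 1, 3 in number 3 against 1, and 3 to 7 in number 3 against 2. The stricter filter left 3 in number 3 against 2, and the fit without the libraries labelled ESC het 1 and hom 1 left 2 in number 2 against 1. The cause of these changes was not tested. Probes near background limit what can be said of Epcam, Cdh2, Snai2 in ESC and Esrp1 and Cdh1 in MEF.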
